A study of Mus musculus with 12 samples.

Results

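A set of 10 genes of insulin and insulin-like growth factor (IGF) signalling were followed in mouse pancreatic islets: the ligand gene Igf1, the receptor genes Insr and Igf1r, the receptor substrates Irs1 and Irs2, the phosphoinositide 3-kinase (PI3K) subunit Pik3r1, the kinases Akt1 and Akt2, and the transcription factors Foxo1 and Foxo3. They were chosen by name, as the rows whose Ensembl identifier carries 1 of these symbols, which gave 10 of the 54532 genes in each library's file. All 10 passed the filter on low counts that left 16076 genes for testing. The islets came from male C57BL/6 mice labelled 40 weeks of age, isolated with collagenase and a density gradient, and total RNA was sequenced in 12 libraries, 3 for each of 4 groups. The standard diet WT group (STD WT) was wild type and ate food with 6.2% fat throughout. The standard diet KO group (STD KO) ate the same food and carried a knockout of Sirt3, the gene of a mitochondrial deacetylase, that the labels call selective for beta cells. The high fat WT group (HFD WT) ate standard food for 4 weeks after birth and then food with 60% of its calories from fat for 36 weeks. The high fat KO group (HFD KO) carried the knockout and ate the high fat food for 36 weeks after 6, 5 and 6 weeks of standard food in libraries 1, 2 and 3. Those weeks add up to more than the 40 weeks of the label, and genotype and earlier feeding cannot be told apart within the high fat diet. The sources used here do not give the promoter that drives the recombinase, the deleted part of Sirt3, whether WT mice carried a recombinase, or whether each library came from its own mouse. P-values therefore measure the spread between these libraries, which may be technical.

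Insulin and IGF1 bind tyrosine kinase receptors that phosphorylate the IRS proteins. These recruit PI3K, whose lipid product activates AKT, and AKT phosphorylates FOXO factors, which then leave the nucleus. Beta cells both secrete insulin and carry its receptor, and IRS2 and FOXO1 are known for their part in keeping up beta cell mass and identity.

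Promoters are shown for Akt1, Foxo1 and Irs2, because the differences described below rest mainly on these genes. Each sequence is the 250 bases before a RefSeq start site in build GRCm38.p6, read 5′ to 3′ on the gene's strand, and capitals mark a match to a motif searched on both strands. The motifs were the FOXO-binding element TGTTTAC, the insulin response element core TGTTTTG, and the STAT element TTCNNNGAA, none of which overlapped another here.
Akt1, minus strand, chr12:112674885-112675134: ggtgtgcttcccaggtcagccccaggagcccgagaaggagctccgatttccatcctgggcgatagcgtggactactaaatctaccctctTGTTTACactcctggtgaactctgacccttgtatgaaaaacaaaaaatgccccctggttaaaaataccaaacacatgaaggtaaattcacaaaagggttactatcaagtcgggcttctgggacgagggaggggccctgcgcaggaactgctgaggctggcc
Foxo1, plus strand, chr3:52268087-52268336: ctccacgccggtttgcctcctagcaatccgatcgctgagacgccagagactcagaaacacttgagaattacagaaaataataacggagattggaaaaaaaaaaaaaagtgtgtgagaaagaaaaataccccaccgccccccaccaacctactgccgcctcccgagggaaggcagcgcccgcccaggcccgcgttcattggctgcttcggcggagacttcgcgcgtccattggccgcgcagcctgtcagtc
Irs2, minus strand, chr8:11008930-11009179: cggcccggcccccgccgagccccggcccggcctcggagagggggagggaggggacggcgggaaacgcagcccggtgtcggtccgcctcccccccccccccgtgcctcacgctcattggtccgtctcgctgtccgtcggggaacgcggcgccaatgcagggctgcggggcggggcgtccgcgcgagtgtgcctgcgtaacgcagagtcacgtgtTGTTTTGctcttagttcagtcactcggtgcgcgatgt
The capitals in Akt1 are the FOXO-binding element, which began 161 bases before this start, and the other Akt1 start in RefSeq had no match in its window. The capitals in Irs2 are the insulin response element core, 37 bases before the start. The bases after this RefSeq start were not found in an annotated (GENCODE) transcript of Irs2, unlike those after the Akt1 and Foxo1 starts shown. Foxo1 had no match to these letters. RefSeq gave 14 starts for 9 of the 10 genes, the exception being Insr. Irs1 also had matches, to the insulin response element core, 111 and 32 bases before its start. The bases after that start were not in an annotated transcript of Irs1 either. In 1 start of Akt2 the STAT element was found, 160 bases before. Of 32851 mouse promoter windows of this length, 3.17% held the FOXO-binding element, 5.56% the insulin response element core and 7.02% the STAT element. A match describes letters and not a bound site.

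Libraries held 16037709 to 20864920 counts, and levels are given as CPM (counts scaled to a common library size, after TMM scaling). Islet identity was clear in the marker genes: 8 beta cell markers summed to 185900 to 402800 CPM in each library. Sirt3 was at 9.04, 11.3 and 11.5 CPM in STD WT and at 6.59, 5.97 and 5.86 CPM in STD KO, and at 11.4, 9.30 and 11.8 CPM in HFD WT and 7.85, 11.5 and 6.21 CPM in HFD KO. Its level was lower in every STD KO library, but HFD KO 2 lay within the WT range, and neither Sirt3 difference passed the edgeR threshold (adjusted p 0.156 and 0.363). HFD KO 2 and STD WT 3 stood apart. The first had that Sirt3 level and the most negative slope on gene length of the 12 libraries. Relative to each gene's mean, log2 CPM there changed by −0.302 per doubling of gene length. The other held 43.5 CPM of Tph1, the serotonin synthesis gene, against 1.33 and 0.697 CPM in the other STD WT libraries and 382 to 1149 CPM in the KO libraries, and it had the lowest sum of acinar markers (4973 CPM, against up to 27720). Values without both libraries are given beside the main differences.

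**Figure D1:**
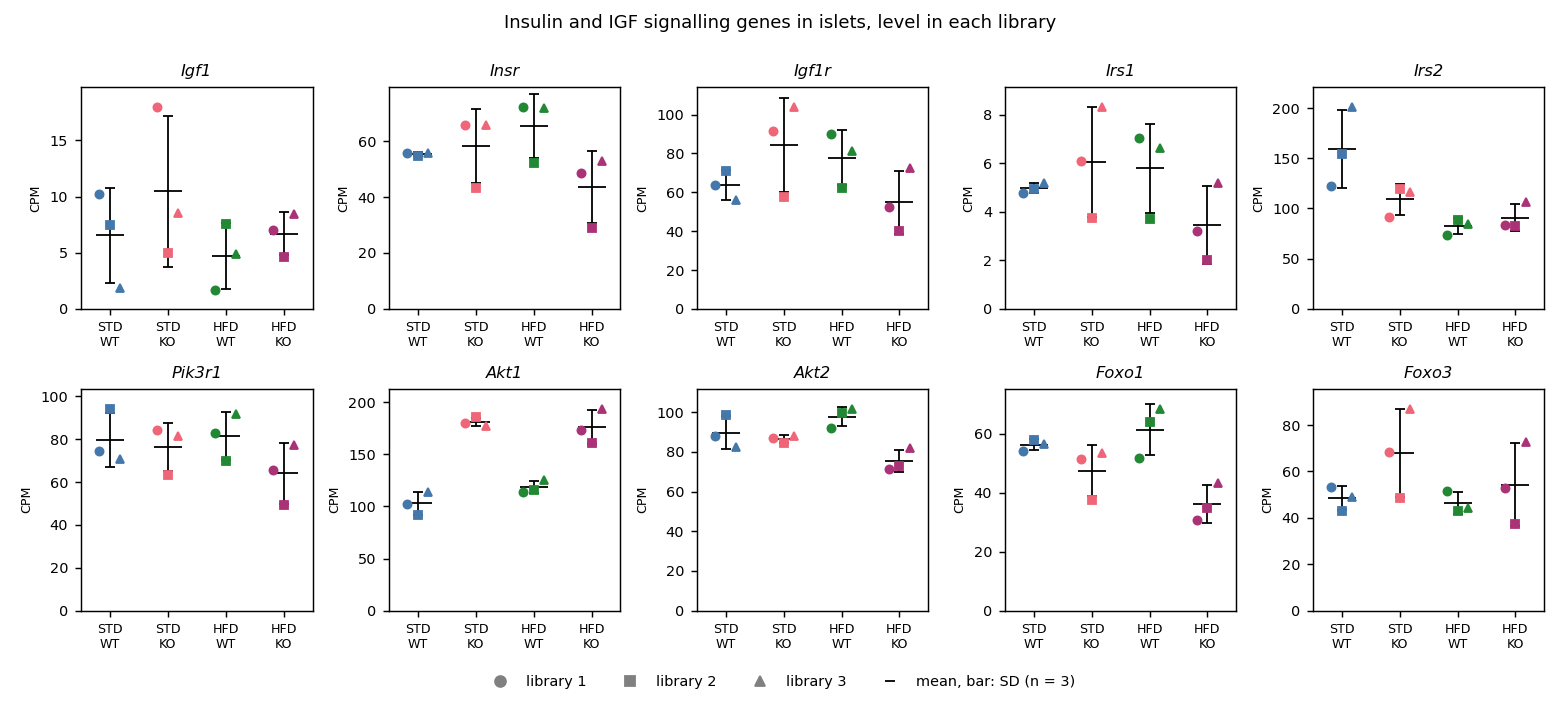
CPM of the 10 genes (y axis, each panel on its own linear scale from 0) in each of the 12 libraries, by group on the x axis. Points are libraries and black bars the mean and SD of 3; in Akt1 every KO library lies above every WT library, and in Irs2 every HFD WT library lies below every STD WT library.

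The gene for the one ligand among the 10, Igf1, was low and uneven. It is a growth factor made in many tissues, largely by mesenchymal cells and macrophages outside the liver. Igf1 was at 10.2, 7.48 and 1.89 CPM in STD WT, 17.9, 4.95 and 8.50 CPM in STD KO, 1.66, 7.51 and 4.92 CPM in HFD WT, and 6.98, 4.63 and 8.44 CPM in HFD KO. The groups overlapped in every comparison, and libraries of 1 group differed more than the group means did. The group means ran from 10.5 ± 6.71 CPM (SD, n = 3) in STD KO through 6.68 ± 1.92 in HFD KO and 6.53 ± 4.25 in STD WT to 4.70 ± 2.93 in HFD WT, with no neighbours apart by more than their spread. Its fold changes carried standard errors of 0.67 to 0.68 on the log2 scale, the widest of the 10 genes, so a moderate difference was not detectable. In bulk islets, fewer cells of a type and less RNA per cell cannot be told apart, which applies to this gene and to all that follow.

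The receptor genes overlapped between WT and KO libraries under both diets and had their lowest group means in HFD KO. Insr, the insulin receptor, was at 55.9, 54.8 and 56.0 CPM in STD WT, 65.9, 43.1 and 65.9 CPM in STD KO, 72.1, 52.1 and 71.9 CPM in HFD WT, and 48.7, 28.9 and 53.0 CPM in HFD KO. The STD WT libraries were nearly equal, whereas library 2 was the lowest of each other group. Means ran from 65.4 ± 11.5 CPM in HFD WT through 58.3 ± 13.1 in STD KO and 55.5 ± 0.687 in STD WT to 43.5 ± 12.9 in HFD KO, and neighbours overlapped except STD WT and HFD KO. Under the high fat diet Insr was lower in KO by 0.59 on the log2 scale (fold 0.666, SE 0.232), which missed the edgeR threshold (adjusted p 0.149). The labels say nothing of the replicate number, but high fat libraries of the same number deviated alike. With the number as a block, a choice made from these data, the difference was −0.65 (edgeR adjusted p 0.0396). Without HFD KO 2 and STD WT 3 it was −0.33 (adjusted p 0.46).

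Igf1r, the IGF1 receptor, was at 64.0, 71.2 and 56.1 CPM in STD WT, 91.8, 57.5 and 103.7 CPM in STD KO, 90.0, 62.4 and 81.0 CPM in HFD WT, and 52.3, 39.8 and 72.3 CPM in HFD KO. The means were 84.3 ± 24.0 CPM in STD KO, 77.8 ± 14.1 in HFD WT, 63.8 ± 7.52 in STD WT and 54.8 ± 16.4 in HFD KO, and neighbours overlapped throughout. Between the KO groups, Igf1r was lower on the high fat diet by 0.62 on the log2 scale (SE 0.252, edgeR unadjusted p 0.031, adjusted p 0.362), and by 0.45 (adjusted p 0.778) without HFD KO 2 and STD WT 3. The genotype difference ran from 0.40 on the standard diet to −0.50 on the high fat diet. The interaction, which is the difference between those values, was −0.91 (SE 0.356, edgeR unadjusted p 0.0263, adjusted p 0.621). Without both libraries the interaction was −0.63 (edgeR unadjusted p 0.112, adjusted p 0.865).

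The receptor substrates differed in level and in pattern. Irs1 was the least expressed gene of the 10 per length, at 4.77, 4.94 and 5.18 CPM in STD WT, 6.08, 3.75 and 8.30 CPM in STD KO, 7.02, 3.70 and 6.63 CPM in HFD WT, and 3.21, 2.0 and 5.19 CPM in HFD KO. Its groups overlapped in all 4 comparisons, and its group means ran from 6.04 ± 2.27 CPM in STD KO through 5.79 ± 1.82 in HFD WT and 4.96 ± 0.205 in STD WT to 3.47 ± 1.61 in HFD KO.

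Irs2, the substrate that beta cells use to maintain their mass, was highest in STD WT. It was at 122.7, 153.9 and 200.6 CPM in STD WT, 91.0, 119.8 and 116.3 CPM in STD KO, 73.4, 88.9 and 84.7 CPM in HFD WT, and 83.6, 82.0 and 106.1 CPM in HFD KO. The lowest STD WT library lay above every library of the other groups. The highest STD WT value belonged to STD WT 3, the library that also held Tph1. Means ran from 159.1 ± 39.2 CPM in STD WT through 109.0 ± 15.7 in STD KO and 90.6 ± 13.5 in HFD KO to 82.3 ± 8.05 in HFD WT, and only the highest pair did not overlap. In WT islets Irs2 was lower on the high fat diet by 0.95 on the log2 scale (fold 0.518, SE 0.190). This gave the smallest edgeR unadjusted p of the 10 genes in that comparison (0.000366), but the adjusted p was 0.551, in a comparison where edgeR called 0% of the genes tested. DESeq2, which called 0.238% of genes there, gave −0.96 with an adjusted p of 0.00258 for Irs2. Without STD WT 3 and HFD KO 2 the edgeR difference was −0.76 (adjusted p 0.76). On the standard diet Irs2 was lower in KO by 0.55 (SE 0.189, edgeR unadjusted p 0.0143, adjusted p 0.302). On the high fat diet the genotype difference was 0.14 with overlapping groups. The interaction for Irs2 was 0.68 (SE 0.267, edgeR unadjusted p 0.0258, adjusted p 0.621). Without STD WT 3 and HFD KO 2, the standard diet difference of Irs2 was −0.31 (edgeR adjusted p 0.765) and its interaction 0.55 (edgeR unadjusted p 0.0555, adjusted p 0.865).

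Pik3r1 encodes the main regulatory subunit of PI3K. It was at 74.7, 94.1 and 70.6 CPM in STD WT, 84.2, 63.6 and 81.6 CPM in STD KO, 82.9, 69.8 and 91.8 CPM in HFD WT, and 65.7, 49.2 and 77.5 CPM in HFD KO. Groups overlapped in every comparison, and the means of the first 3 groups lay between 76.5 and 81.5 CPM. The HFD KO mean was 64.1 ± 14.2 CPM (SD, n = 3), 0.34 below HFD WT on the log2 scale with an edgeR adjusted p of 0.292.

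Akt1 rose in the KO islets under both diets. Akt1 encodes the AKT kinase found in most tissues, tied mainly to growth and survival, while Akt2 is tied mainly to glucose handling. Akt1 was at 102.6, 91.9 and 114.2 CPM in STD WT and at 179.8, 185.7 and 177.6 CPM in STD KO. It was at 114.3, 116.2 and 125.7 CPM in HFD WT and at 173.7, 160.8 and 193.4 CPM in HFD KO. All 6 KO libraries exceeded all 6 WT libraries, with a gap from 125.7 to 160.8 CPM. The means were 181.0 ± 4.2 and 176.0 ± 16.4 CPM in STD KO and HFD KO, which overlapped, and 118.7 ± 6.14 and 102.9 ± 11.1 CPM in HFD WT and STD WT.

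On the standard diet Akt1 was the only one of the 10 genes past the threshold. It was 1.76-fold higher in KO (log2 difference 0.81, SE 0.119, edgeR adjusted p 0.00432), in a comparison that called 1.71% of all genes, 1.34% as higher and 0.367% as lower in KO. Leaving out any 1 library kept the call. With both STD WT 3 and HFD KO 2 left out it was 0.93 (adjusted p 0.00599). On the high fat diet Akt1 was 1.48-fold higher (0.57, SE 0.119, adjusted p 0.0141), where 7.4% of all genes were called, 3.9% as higher and 3.5% as lower. That call was lost without HFD WT 1 (adjusted p 0.0632), without HFD KO 1 (0.054), with the replicate block (0.53, adjusted p 0.0526) and with offsets that take out the gene length trend (0.41, adjusted p 0.136). Without HFD KO 2 and STD WT 3 it was 0.66 (adjusted p 0.0137). The interaction for Akt1 was −0.25 (SE 0.167, adjusted p 0.658), so the genotype difference was not shown to differ between diets. Between diets Akt1 differed by 0.21 in WT, without overlap of the libraries, and by −0.04 in KO, and neither passed the test.

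Akt2 did not follow Akt1. It was at 88.0, 98.6 and 82.2 CPM in STD WT, 87.2, 84.3 and 87.9 CPM in STD KO, 92.2, 99.3 and 101.5 CPM in HFD WT, and 71.4, 72.9 and 81.8 CPM in HFD KO. The HFD KO libraries lay below all 9 others, with HFD KO 3 just under STD WT 3. Means ran from 97.7 ± 4.89 CPM in HFD WT through 89.6 ± 8.32 in STD WT and 86.4 ± 1.91 in STD KO to 75.4 ± 5.61 in HFD KO. On the high fat diet Akt2 was lower in KO by 0.37 on the log2 scale (SE 0.107), just outside the edgeR threshold (adjusted p 0.0571). It passed with DESeq2 (adjusted p 0.00944), with the gene length offsets (−0.40, adjusted p 0.0366) and without HFD KO 3 (−0.42, adjusted p 0.0253), and without HFD KO 2 and STD WT 3 the adjusted p was 0.201.

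Within single libraries, where scaling between libraries plays no part, the ratio of Akt1 to Akt2 counts separated the genotypes. The ratio was 1.17, 0.932 and 1.39 in STD WT and 1.24, 1.17 and 1.24 in HFD WT. It was 2.06, 2.20 and 2.02 in STD KO and 2.43, 2.21 and 2.37 in HFD KO. No KO library overlapped a WT library, and the group means were 1.16 ± 0.229, 1.22 ± 0.0399, 2.10 ± 0.0959 and 2.34 ± 0.117 (SD, n = 3) in STD WT, HFD WT, STD KO and HFD KO. The ratio compares how the genes moved against each other and was not corrected for their lengths, so it is not a ratio of transcript numbers.

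**Figure D2:**
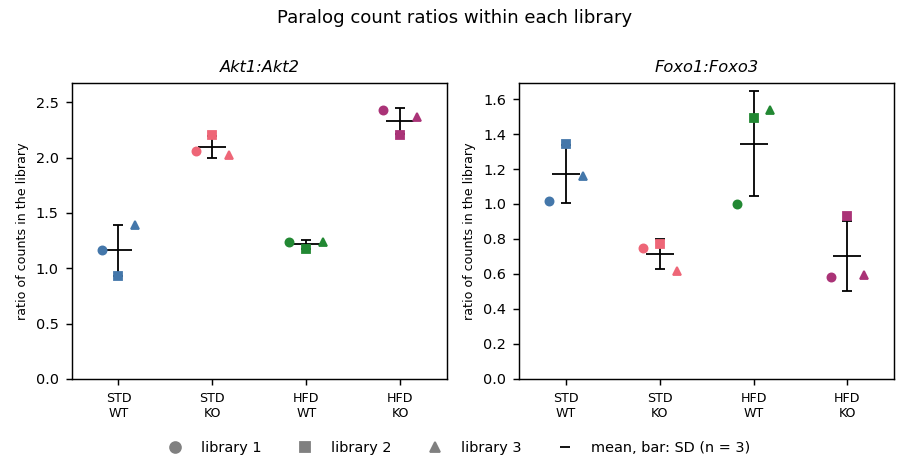
Ratio of counts of Akt1 to Akt2 (left) and of Foxo1 to Foxo3 (right) in each library, y axis linear from 0 and groups on the x axis, with the mean and SD of 3 as black bars. KO libraries lie above WT libraries in the left panel (2.02 to 2.43 against 0.932 to 1.39) and below them in the right panel (0.581 to 0.933 against 1.0 to 1.54).

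Foxo1 fell in KO islets on the high fat diet. FOXO1 restrains proliferation and protects beta cell identity under metabolic stress. Foxo1 was at 54.3, 57.9 and 56.6 CPM in STD WT, 51.4, 37.5 and 53.4 CPM in STD KO, 51.7, 63.9 and 68.3 CPM in HFD WT, and 30.7, 34.7 and 43.2 CPM in HFD KO. Every KO library lay below every WT library of its diet. Means ran from 61.3 ± 8.62 CPM in HFD WT through 56.3 ± 1.83 in STD WT and 47.4 ± 8.67 in STD KO to 36.2 ± 6.38 in HFD KO, with overlap between HFD WT and STD WT and between the KO groups. On the high fat diet the fold was 0.591 (log2 −0.76, SE 0.170, edgeR adjusted p 0.0205). With the replicate block it was −0.80 (adjusted p 0.0173). The call was lost without HFD WT 3 (adjusted p 0.0964), HFD KO 1 (0.107) or HFD KO 2 (0.0692), and with both HFD KO 2 and STD WT 3 left out (−0.70, adjusted p 0.111). With the gene length offsets the difference shrank to −0.38 (adjusted p 0.122). The call was also lost with limma at either pseudocount, with the compared groups alone and with block and length offsets, in 9 of 23 alternatives in all. On the standard diet the difference was −0.25 (adjusted p 0.895). Between the KO groups it was −0.39 (edgeR unadjusted p 0.042, adjusted p 0.385). Over the alternatives this last difference ran from −0.55 to −0.09, the latter with the gene length offsets, and it was −0.37 (adjusted p 0.778) without HFD KO 2 and STD WT 3.

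Foxo3, a FOXO factor of the same family tied to stress resistance, did not pass in any comparison. It was at 53.4, 43.0 and 48.8 CPM in STD WT, 68.5, 48.5 and 86.9 CPM in STD KO, 51.7, 42.8 and 44.4 CPM in HFD WT, and 52.8, 37.2 and 72.9 CPM in HFD KO. Means were 68.0 ± 19.2 CPM in STD KO, 54.3 ± 17.9 in HFD KO, 48.4 ± 5.22 in STD WT and 46.3 ± 4.75 in HFD WT, and neighbours overlapped. Foxo3 differed from Foxo1 in the sign of its genotype difference, at 0.49 on the standard diet (adjusted p 0.681) and 0.23 on the high fat diet (adjusted p 0.61). The ratio of Foxo1 to Foxo3 counts was 1.02, 1.34 and 1.16 in STD WT, 0.75, 0.773 and 0.615 in STD KO, 1.0, 1.49 and 1.54 in HFD WT, and 0.581, 0.933 and 0.592 in HFD KO. KO libraries lay below WT libraries throughout, with the nearest values at 0.933 and 1.0.

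Counted over the 10 genes, 1 passed the edgeR threshold in KO against WT on the standard diet and 2 on the high fat diet, against the 1.71% and 7.4% of all genes given above. At an unadjusted p below 0.05 the counts were 2 and 4, against 8.66% and 24.3% of all genes. Groups of 3 did not overlap for 3 of the 10 genes on each diet, against 14.8% and 24.5% of all genes tested. The median log2 difference of the 10 was 0.18 on the standard diet (6 positive, 4 negative) and −0.36 on the high fat diet (4 positive, 6 negative), where the medians of all genes were −0.02 and 0.00. In WT islets, high fat against standard diet gave 0 of 10 past the edgeR threshold, 1 at an unadjusted p below 0.05 against 4.74% of all genes, 1 by DESeq2 (Irs2) and 0 by limma, with 2 not overlapping against 9.59% of all genes. In KO islets the same contrast gave 0 of 10 with edgeR, DESeq2 and limma and 2 at an unadjusted p below 0.05, against 12.5% of all genes. One of the 10 did not overlap there, against 12.1% of all genes, and edgeR called 0.0435% of all genes. All 10 genes were lower on the high fat diet in KO islets (median −0.36, against −0.03 over all genes). This difference also fell with gene length (Spearman rho −0.339 across genes), and with the length offsets the median of the 10 was −0.21. It was −0.21 as well without STD WT 3 and HFD KO 2, where 9 were lower and 1 higher. The interaction gave 0 of 10 with edgeR, DESeq2 and limma, 2 at an unadjusted p below 0.05 against 7.91% of all genes, and 0% of all genes by edgeR. Without STD WT 3 and HFD KO 2, 0 of the 10 had an unadjusted p below 0.05 between diets in KO and 0 for the interaction. These contrasts share groups, so their counts do not add up.

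**Figure D3:**
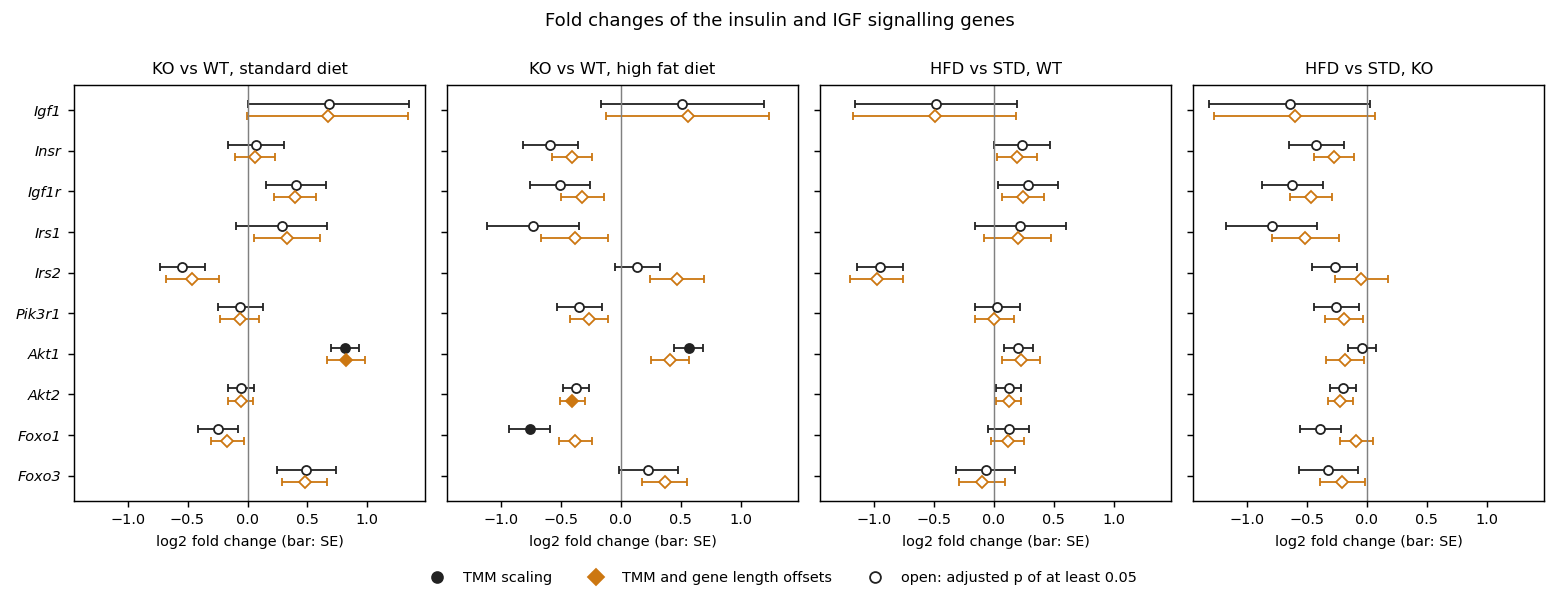
Log2 fold changes (x axis, bars are SE) of the 10 genes in the 4 comparisons of 2 groups, with TMM scaling (circles) and with gene length offsets added (diamonds); filled symbols passed an adjusted p of 0.05. Akt1 is filled with both on the standard diet, while on the high fat diet the filled symbols are Akt1 and Foxo1 with TMM scaling and Akt2 with the offsets.

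The high fat differences were also set against gene length. Over the 16076 genes, the log2 difference between HFD KO and HFD WT fell with gene length (Spearman rho −0.307 across genes), while on the standard diet it hardly varied with length (−0.0472). By the lengths implied in the FPKM values, 8 of the 10 genes were longer than the median gene (1798 bp), the exceptions being Akt1 (965 bp) and Akt2 (1527 bp). The slope of each library's log2 CPM against log2 length was lowest in HFD KO 2 (−0.302), HFD KO 1 (−0.111) and STD KO 2 (−0.089), and it was 0.0485 in HFD KO 3. HFD KO 2 held the lowest level of all 12 libraries for Insr, Igf1r, Irs1, Pik3r1 and Foxo3. In HFD KO 3, Insr (53.0 CPM), Irs1 (5.19) and Pik3r1 (77.5) lay within the range of HFD WT. With the length trend taken out, the median of the 10 genes in KO against WT on the high fat diet moved from −0.36 to −0.29, Insr from −0.59 to −0.41, Irs1 from −0.73 to −0.38 and Irs2 from 0.14 to 0.47. The part of the length trend in each single difference was not tested.

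**Figure D4:**
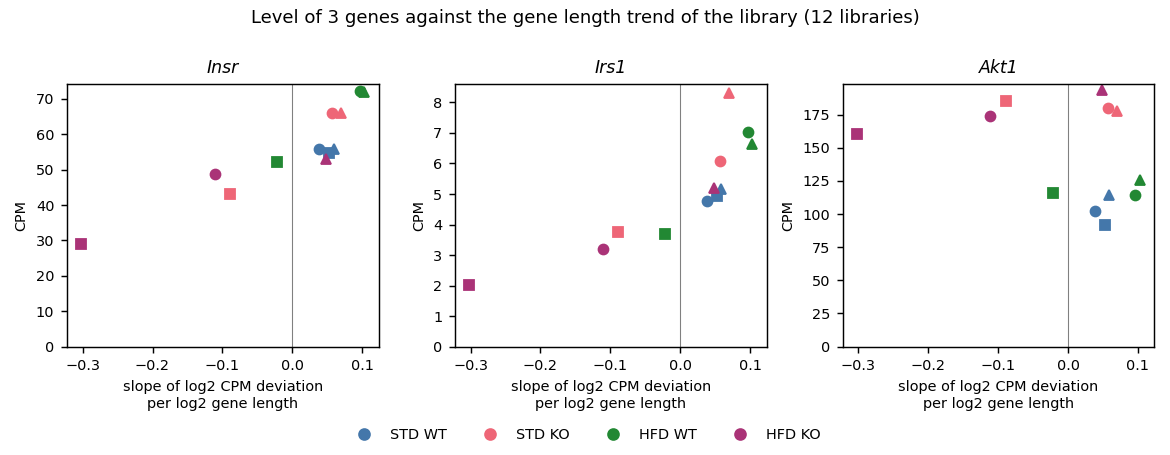
CPM of Insr, Irs1 and Akt1 (y axes, linear from 0) against the slope of each library's log2 CPM deviation on log2 gene length (x axis), 1 point per library, coloured by group. Insr and Irs1 are lowest in HFD KO 2, the library with the slope of −0.302, while Akt1 there was 160.8 CPM, above every WT library.

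Other cells in the preparation varied as well. The 8 T and B lymphocyte markers summed to 93.5 to 256 CPM in STD WT and 136 to 212 in STD KO. On the high fat diet their sums were 25.7 to 528 CPM in WT and 64.3 to 346 in KO, highest in library 2 of both groups. The sum of 10 macrophage markers ran from 183 to 252 CPM in STD WT, 252 to 327 in STD KO, 162 to 245 in HFD WT and 338 to 395 in HFD KO. Of these markers 3 were higher in KO on the high fat diet by edgeR, against 3.9% of all genes. Each of the 10 was detected. The 10 stellate and fibroblast markers summed to 197 to 381 CPM in HFD WT and 298 to 688 in HFD KO. The 8 acinar markers summed to 4973 to 22200 CPM in STD WT and 7321 to 20180 in STD KO, and to 16970 to 27720 in HFD WT and 13080 to 17520 in HFD KO. The 5 adipocyte markers, of which 2 were tested, summed to 14.6 to 25.8 CPM in HFD WT and 30.7 to 39.4 in HFD KO, without overlap. Nearly all of that sum was Fabp4, with means of 19.8 CPM in HFD WT and 34.4 in HFD KO. Adipoq (means 0.0397 and 0.0368 CPM), Plin1 (0.432 and 0.531), Cfd (0.264 and 0.296) and Lep were scarce and overlapped between these groups. Of 8 beta cell markers, 1 was lower in KO on the high fat diet by edgeR, against 3.5% of all genes. Mafa, Slc2a2, Ucn3 and Pdx1 lay lower in every HFD KO library than in every HFD WT library. Their means were 405, 335.5, 267 and 115 CPM against 549, 691, 585 and 149, and 24.5% of all genes did not overlap there. Nkx6-1 (276 against 470 CPM) and Ins2 had lower means in HFD KO with overlap. Ins1 and Iapp had higher means there, also with overlap. The part of these cells in the differences above was not tested.

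A wider list of 113 other pathway genes, of which 109 were tested, gave 3 higher and 1 lower in KO on the standard diet. Of these 4, 3 belong to the 12 listed IGF-binding and shedding genes (11 tested). Over all genes tested, edgeR called 1.34% higher and 0.367% lower there. On the high fat diet the list gave 9 higher and 8 lower, against 3.9% and 3.5% of all genes. Of these pathway genes, 4 were in the IGF-binding and shedding class. The median of the 109 was 0.02 and −0.14, against −0.02 and 0.00 over all genes. The FPKM values, tested with limma without TMM scaling, gave 4 higher and 1 lower, and 9 higher and 4 lower. There, all genes split into 254 higher and 32 lower on the standard diet and 690 and 372 on the high fat diet, against 216 and 59, and 627 and 562, with edgeR.

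Igfbp5 encodes an IGF-binding protein that sits in the matrix. It was at 72.2, 43.7 and 33.2 CPM in STD WT, 186.5, 170.4 and 191.8 in STD KO, 13.0, 21.4 and 18.4 in HFD WT, and 81.0, 92.4 and 180.7 in HFD KO. It was 3.68-fold higher in KO on the standard diet (log2 1.88, SE 0.346, edgeR adjusted p 0.0189) and 6.72-fold higher on the high fat diet (2.75, SE 0.361, adjusted p 0.00113). The standard diet call was lost when any 1 of STD WT 2, STD WT 3 or the STD KO libraries was left out (adjusted p up to 0.107) and without STD WT 3 and HFD KO 2 (1.69, adjusted p 0.0848). It was also lost with the replicate block and length offsets together. In WT islets Igfbp5 was lower on the high fat diet by 1.50 (edgeR adjusted p 0.584, DESeq2 adjusted p 0.00815), again with no overlap.

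Igfals encodes the acid-labile subunit that joins IGF and its binding protein in a ternary complex. It was at 29.2, 33.0 and 47.4 CPM in STD WT, 94.1, 102.9 and 95.8 in STD KO, 43.9, 34.9 and 46.2 in HFD WT, and 129.9, 107.5 and 129.6 in HFD KO. All KO libraries exceeded all WT libraries, by 2.68-fold on the standard diet (edgeR adjusted p 0.0018) and 2.94-fold on the high fat diet (adjusted p 0.00052), and both calls held in all 23 alternatives.

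The pappalysins, proteases that cut IGF-binding proteins and free IGF, moved in opposite directions on the high fat diet. Pappa2, which cuts Igfbp5 among others, was at 572.8, 734.6 and 410.4 CPM in STD WT, 256.8, 181.0 and 232.1 in STD KO, 652.7, 463.0 and 501.0 in HFD WT, and 238.6, 138.6 and 193.4 in HFD KO. It fell to 0.39-fold in KO on the standard diet (edgeR adjusted p 0.0216) and to 0.353-fold on the high fat diet (adjusted p 0.0053). Leaving out STD WT 1, STD WT 2 or any 1 STD KO library raised the standard diet p to between 0.0537 and 0.11. That call was also lost with the replicate block, alone or with length offsets, and with limma on log2(FPKM + 0.1). Pappa was scarce, at 0.367, 0.697 and 0.167 CPM in STD WT, 1.34, 1.54 and 2.15 in STD KO, 0.0536, 0.358 and 0.229 in HFD WT, and 2.35, 2.14 and 4.07 in HFD KO. It was 13.2-fold higher in KO on the high fat diet (log2 3.72, SE 0.618, adjusted p 0.0041), from a very low level in WT.

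On the receptor side, Insrr, which encodes the insulin receptor-related receptor, a sensor of alkaline pH, fell in KO on the high fat diet. It was at 142.7, 154.7 and 245.0 CPM in STD WT, 114.3, 105.5 and 117.1 in STD KO, 253.0, 188.3 and 249.6 in HFD WT, and 54.6, 70.3 and 88.8 in HFD KO. The fold on the high fat diet was 0.31 (log2 −1.69, SE 0.234, edgeR adjusted p 0.00135), and on the standard diet the libraries did not overlap either but the test was not passed. Igf2r, the receptor that clears IGF2, overlapped in each genotype comparison, with means of 101.3, 125.3, 127.7 and 112.2 CPM in STD WT, STD KO, HFD WT and HFD KO. The insulin genes themselves did not pass the edgeR threshold in any contrast. Ins1 had means of 74700, 72170, 74360 and 111200 CPM in STD WT, STD KO, HFD WT and HFD KO. Ins2 had means of 221900, 150400, 231100 and 185800 CPM in the same order, and for both genes the compared groups overlapped.

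Socs2, an inhibitor of growth hormone and prolactin receptor signalling induced by STAT5, had the smallest edgeR p of the pathway genes under both diets. It was at 15.5, 13.6 and 30.4 CPM in STD WT, 100.4, 104.4 and 88.3 in STD KO, 10.6, 13.9 and 12.8 in HFD WT, and 120.8, 86.8 and 99.4 in HFD KO. The folds were 4.93 (adjusted p 0.00105) and 8.24 (adjusted p 0.000104), and without STD WT 3 and HFD KO 2 the log2 differences were 2.78 and 3.18 (adjusted p 7.13e-05 and 9.31e-06). The standard diet call was lost with the replicate block, alone or with length offsets (edgeR adjusted p up to 0.0644). The high fat call held in all 23 alternatives. STD WT 3, the WT library with Tph1, held the highest Socs2 level of the WT libraries.

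**Figure D5:**
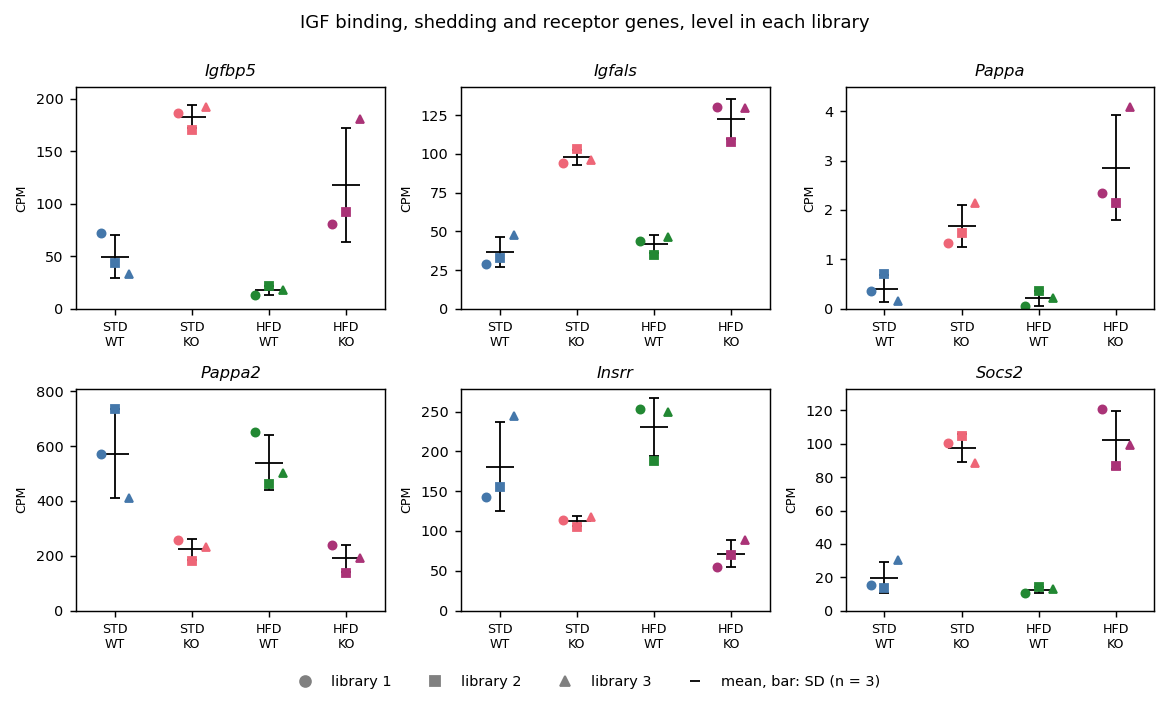
CPM of Igfbp5, Igfals, Pappa, Pappa2, Insrr and Socs2 (y axis, each panel on its own linear scale from 0) in each library, by group on the x axis, with the mean and SD of 3 as black bars. For Igfals every KO library (94.1 to 129.9) lies above every WT library (29.2 to 47.4), and for Pappa2 every KO library lies below every WT library.

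Genes that FOXO factors control or that work with them did not move together. Of 18 listed targets and cofactors (17 tested), none passed on the standard diet with edgeR, where 1.71% of all genes did. There 4 had an edgeR unadjusted p below 0.05, against 8.66% of all genes. On the high fat diet edgeR called 3 higher and 2 lower in KO, against 3.9% and 3.5% of all genes. Txnip, an inhibitor of thioredoxin that glucose induces, had means of 335 ± 50.4 CPM in HFD WT and 775 ± 173.7 in HFD KO and rose 2.31-fold (edgeR adjusted p 0.00546). Ppargc1a, a coactivator of mitochondrial genes, fell to 0.339-fold, from 9.82 ± 2.36 to 3.32 ± 1.12 CPM (adjusted p 0.00795). The others were Gadd45a, a DNA damage gene, at 2.74-fold, Cdkn1a, a cell cycle inhibitor, at 1.80-fold, and Bcl2l11, a gene of cell death, at 0.565-fold.

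Outside that list, Foxo6 fell to 0.565-fold (edgeR adjusted p 0.0199). Thus 2 of the 4 FOXO genes were called lower in KO on the high fat diet, against 3.5% of all genes. The Foxo1 call was lost in 9 of 23 alternatives, and the Foxo6 call was not followed through them gene by gene. Among 17 genes of the mTOR complexes and their controls, 2 rose and 2 fell, against 3.9% and 3.5% of all genes. Ddit4, an inhibitor of mTORC1, rose 2.34-fold and Eif4ebp1, a translation repressor, rose 1.66-fold. Rptor, the mTORC1 scaffold, fell to 0.61-fold and Tsc2, an mTORC1 inhibitor, to 0.622-fold. By the lengths implied in the FPKM values, the genes that rose are shorter (1755 and 1398 bp) than those that fell (2763 and 2025 bp). The part of the length trend in these folds was not tested. Inppl1, a lipid phosphatase that acts against PI3K, fell to 0.666-fold (adjusted p 0.0123). None of the 6 PI3K subunits and none of the 13 genes of the RAS and ERK arm passed with edgeR on either diet. At an unadjusted p below 0.05, 0 PI3K subunits and 0 RAS and ERK genes were found on the standard diet, and 1 and 3 on the high fat diet. Of the 6 AKT and upstream kinase genes, Akt1 and Akt2 among them, 1 and 5 were below it. The counts were 1 and 10 of the 17 mTOR genes, and 14 and 37 of the 109 pathway genes. Over all genes the shares were 8.66% and 24.3%. The high fat count of 17 pathway genes past the edgeR threshold fell to 9 without HFD WT 3 or HFD KO 1 and rose to 30 without HFD KO 3. The standard diet count of 4 was 2 without STD WT 2 or any 1 of the STD KO libraries. No pathway gene passed with edgeR between diets or for the interaction, where 15, 7 and 12 had an unadjusted p below 0.05 in WT, in KO and for the interaction, against 4.74%, 12.5% and 7.91% of all genes. The smallest p-values there were those of Igfbp5 and Socs3 in WT (log2 −1.50 and −1.40), which DESeq2 called, Sesn2 and Insrr in KO (−0.40 and −0.66), and Rptor and Txnip for the interaction (−0.88 and 0.95).

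Per length, Akt1 was the most abundant of the 10 genes. In FPKM as deposited, which divide by a gene length, the means over 12 libraries were 151 for Akt1, 57.4 for Akt2, 35.3 for Pik3r1, 21.2 for Igf1r, 19.6 for Foxo3, 17.5 for Irs2, 17.2 for Insr, 5.84 for Foxo1, 3.73 for Igf1 and 0.562 for Irs1. The authors' lengths are shorter than all annotated exons for many of these genes, for example 965 against 4098 bp in Akt1 and 3254 against 13746 bp in Insr. Per kilobase of all exons, Akt1 stayed highest (35.3 CPM per kilobase) and Irs1 lowest (0.554), but Irs2 moved from place 6 to place 2 (17.4). The order of the middle genes thus depends on the length used.

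Across the 12 libraries, levels of several of the 10 genes ran in parallel. The Pearson correlation of log2 CPM was 0.938 between Igf1r and Irs1, 0.935 between Insr and Irs1, 0.893 between Akt2 and Foxo1 and 0.891 between Insr and Pik3r1, and it was −0.636 between Akt1 and Foxo1. These are descriptions over libraries that share groups and the length trend, and they carry no test. Among 13476 genes of at least 1 CPM, the 3 most like Akt1 were Ogdhl (0.978), Cux2 (0.973) and Soat1 (0.967), and 95 genes reached 0.9. For Irs2 they were Fosl2 (0.919), Dusp5 (0.917) and Zbtb21 (0.901), the only 3 to reach 0.9. For Insr they were Ttbk2 (0.980), Trip12 (0.980) and Cpd (0.979), with 244 genes at 0.9 or more, and for Igf1r they were Aff1 (0.976), Sptan1 (0.954) and Ulk2 (0.943). For Igf1 they were Col18a1 (0.962), Enc1 (0.939) and Crp (0.931). Foxo1 was most like Zfp629 (0.967), Zfp592 (0.966) and Kmt2b (0.961), and Foxo3 most like Ppm1h (0.933), Abr (0.925) and Mrtfb (0.924). Akt2 was most like Apc2 (0.971), Sall2 (0.941) and Kazn (0.933), Irs1 like Mib1 (0.965), Synrg (0.960) and Zfp609 (0.959), and Pik3r1 like Phldb2 (0.966), Sesn3 (0.963) and Abat (0.962).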

How the data were processed

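Per the submitters' processing notes, TopHat2, Cufflinks and DESeq were used with build mm10; the sources used here give no versions, annotation release or strand setting. The authors deposited raw read counts per gene and FPKM for each library. The deposited FPKM equalled count over length and library total for all 257939 values compared (tolerance 1e-05), so they carry no scaling between libraries. Few counts (0 to 52 in all) fell in genes overlapping the 10.

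Counts were filtered with filterByExpr (minimum count 10, total 15), scaled by TMM and tested with edgeR 4.0.16 (R 4.3.3, limma 3.58.1) by the quasi-likelihood test, 1 mean per group and 5 contrasts. P-values were Benjamini-Hochberg adjusted over 16076 genes (threshold 0.05). Replicate libraries differed beyond sampling noise (chi-square per degree of freedom from 26.6). Replicate numbers were taken to pair the high fat libraries, since deviations of the same number correlated in every pair (0.515, 0.41 and 0.336); this comes from the data, as the labels say nothing of the number.

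Tested on simulated counts of the 16076 genes, each contrast of 2 groups called 35 to 43 of the 100 made to differ 2-fold, and 76 to 80 of those at 4-fold. The interaction called only 6 of 100 at 2-fold and 52 of 100 at 4-fold. A missing call, for the interaction or between 2 groups, thus does not show that a 2-fold difference was absent. Alternatives were DESeq2 1.42.0, its size factors, other filters (none, or 1 CPM in 6 libraries), limma on log2(FPKM + 1) or log2(FPKM + 0.1) with mean FPKM of at least 0.5, the compared groups alone, a replicate block, offsets for gene length, and libraries left out. The genes, lists and alternatives were chosen with earlier results of these data known. Named were the 10 genes, with statistics for those past the threshold or at unadjusted p below 0.05, or else the 2 smallest p; up to 8 other pathway genes per contrast, or else the 2 smallest p; and the 3 genes most alike by Pearson correlation (log2 CPM, prior count 2). Gadd45a, Inppl1, Ddit4, Foxo6, Rptor, Bcl2l11, Cdkn1a, Tsc2, Eif4ebp1 and Igf2r were named after their values were seen.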

Additional observations from a re-analysis of the deposited data

How the results depend on the processing

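No alternative turned the direction of the 30 differences that were followed gene by gene, each through 21 to 23 alternatives. Other differences did change sign: without STD WT 3 and HFD KO 2, Akt1 between diets in KO went from −0.04 to 0.01, Pik3r1 between diets in WT from 0.03 to −0.07 and the Igf1 interaction from −0.16 to 0.48, and Akt2 and Pik3r1 on the standard diet went from −0.05 and −0.06 to 0.08 and 0.07 with FPKM. With the replicate block, Akt1 on the standard diet was 0.84 with an adjusted p of 0.0603, so 0 of the 10 genes and 2 of the other pathway genes passed there. The standard diet and diet numbers did not pair the libraries (correlations of −0.00396, −0.175 and −0.234 on the standard diet). On the standard diet, other pathway genes past the threshold numbered 4, but 7 with DESeq2 and 1 with block and length offsets; single libraries left out gave 2 to 5, and 1 of the 10 each time. On the high fat diet, 2 of the 10 passed, but 1 with limma at either pseudocount, 0 with the compared groups alone, 1 with length offsets, 1 with block and length offsets, and 1 without STD WT 3 and HFD KO 2; single libraries left out gave 0 to 3. The 17 other pathway genes were 11 with the compared groups alone, and 9 to 30 with single libraries left out. In WT between diets, 0 of the 10 and 0 other pathway genes passed with edgeR, but 1 and 2 with DESeq2. In KO between diets, 0 other pathway genes passed, and 0 to 3 with single libraries left out (3 without HFD KO 3). Over all genes, DESeq2 called 484 on the standard diet and 2033 on the high fat diet against 275 and 1189 with edgeR, and 38, 113 and 30 against 0, 7 and 0 in the other contrasts. The compared groups alone gave 543 on the high fat diet, leaving out both libraries 745, and the block 135 on the standard diet. Without HFD KO 3, 2899 were called on the high fat diet and 801 between diets in KO, and without HFD KO 1, 519 on the high fat diet. With limma on log2(FPKM + 1), which is another test and filter without TMM scaling, the median of all genes was 0.10 on the standard diet, −0.17 between diets in KO and −0.11 for the interaction, against −0.02, −0.03 and 0.01 with edgeR, and 8 rather than 6 of the 10 were higher in KO on the standard diet.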
